A study of Sus scrofa with 23 samples.

Results

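The SLC26 family holds anion exchangers and chloride channels, and this account follows 8 of its genes, SLC26A1, SLC26A2, SLC26A3, SLC26A4, SLC26A6, SLC26A7, SLC26A9 and SLC26A11, in the kidney cortex of newborn pigs. The 8 genes were chosen by symbol from 26687 gene symbols in the transcript table, by a rule that uses no measured value but was set with earlier results of these data known. RNA was sequenced after removal of ribosomal RNA from 23 pigs, 1 library a pig. Of these, 11 carried the label CF (genotype CFTR-/-), 6 the label HET (CFTR+/-) and 6 the label WT (wild type). HET and WT libraries together form the 12 non-CF libraries of the study's comparison. Heterozygous parents were mated to give the CFTR-/- piglets, the piglets were studied within hours of birth, and the samples are whole pieces of cortex. Every library held between 32901281 and 52952273 estimated counts. In bulk tissue, fewer cells of a type and less RNA per cell cannot be told apart.

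SLC26 proteins share a membrane domain that moves chloride, bicarbonate, sulfate, oxalate or iodide, and a cytoplasmic STAS domain. In several epithelia the STAS domain contacts the regulatory domain of CFTR, the chloride and bicarbonate channel, and each protein raises the activity of the other. Within the kidney the best-known members divide by segment. SLC26A1 lies on the basolateral and SLC26A6 on the apical face of proximal tubule cells, whereas SLC26A4 (pendrin) and SLC26A7 belong to intercalated cells, the acid- and base-secreting cells of the collecting system. SLC26A2 is a widely used sulfate transporter, SLC26A11 a chloride transporter of intercalated and other cells, and SLC26A3 and SLC26A9 are best known from the intestine, and from airway and stomach.

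CFTR, the gene named in the labels, was measured first. Libraries labelled WT held 1.27 to 3.67 CPM of CFTR (median 2.24), those labelled HET 9.41 to 17.5 (median 12.1), and those labelled CF 12.5 to 23.5 (median 20.7). CPM here are counts scaled to library size with TMM factors. The libraries labelled WT lay below all others. CFTR was higher in the libraries labelled CF than in those labelled WT by 3.14 on the log2 scale (SE 0.188, edgeR quasi-likelihood test, adjusted p = 1.24e-10). Against the 12 non-CF libraries together the difference was 1.42 (SE 0.354, adjusted p = 0.0654, edgeR), so that comparison did not call CFTR. The summed CFTR level was thus not lower in the libraries labelled CF. The reason was not tested, and every direction below is that of the library labels. The levels of cell type markers showed that the tissue held the segments in which the family works. Median levels per length were 408 TPM for SLC34A1 and 328 TPM for LRP2, both of the proximal tubule, 166 TPM for SLC12A1 of the thick ascending limb, 58.2 TPM for AQP2 of principal cells and 80.7 TPM for ATP6V1B1, a proton pump subunit of intercalated cells. FOXI1, the transcription factor of intercalated cells, had a median of 6.30 TPM.

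The members spanned a wide range of levels. SLC26A7 was highest, with a median of 38.6 TPM over the 23 libraries (range 22.8 to 62.5), and ranked at percentile 91.8 of the 23409 expressed symbols. SLC26A1 followed with 27.4 TPM (range 17.4 to 42.5) and SLC26A11 with 24.9 TPM (range 17.2 to 46.6). SLC26A2 reached 10.6 TPM (range 8.50 to 14.1). SLC26A4 had 3.43 TPM (range 1.49 to 5.89) and SLC26A6 had 3.33 TPM (range 2.13 to 6.08), both near the middle of all expressed symbols at percentiles 48.5 and 48.0. SLC26A3 stood at 0.0941 TPM and SLC26A9 at 0.0310 TPM, percentiles 7.81 and 2.96. TPM is an estimate per transcript length, so these levels can be set side by side within a library.

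Some neighbours in this order did not differ beyond their spread. SLC26A7 exceeded SLC26A1 in 20 of 23 libraries, with a median ratio of 1.42, and SLC26A1 exceeded SLC26A11 in 14 of 23. SLC26A11 exceeded SLC26A2, and SLC26A2 exceeded SLC26A4, in 23 of 23 libraries, with no overlap of their ranges. SLC26A4 exceeded SLC26A6 in 9 of 23 libraries only, so the order of these genes was not settled. When estimated counts were divided by the length of the longest transcript in place of TPM, 3 of the 8 members kept their place. SLC26A11 came first (968 counts per kilobase), before SLC26A7 (781) and SLC26A1 (714), and SLC26A6 (128) passed SLC26A4 (121). The longest annotated transcript of SLC26A7, of 5820 bases, held 0.4 estimated counts over all libraries together. This second order therefore depends on the length used to divide. The summed level of the 8 genes was 107 TPM (median, range 87.2 to 137), and SLC26A7, SLC26A1, SLC26A11 and SLC26A2 made up 90.9% to 96.0% of it.

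**Figure D1:**
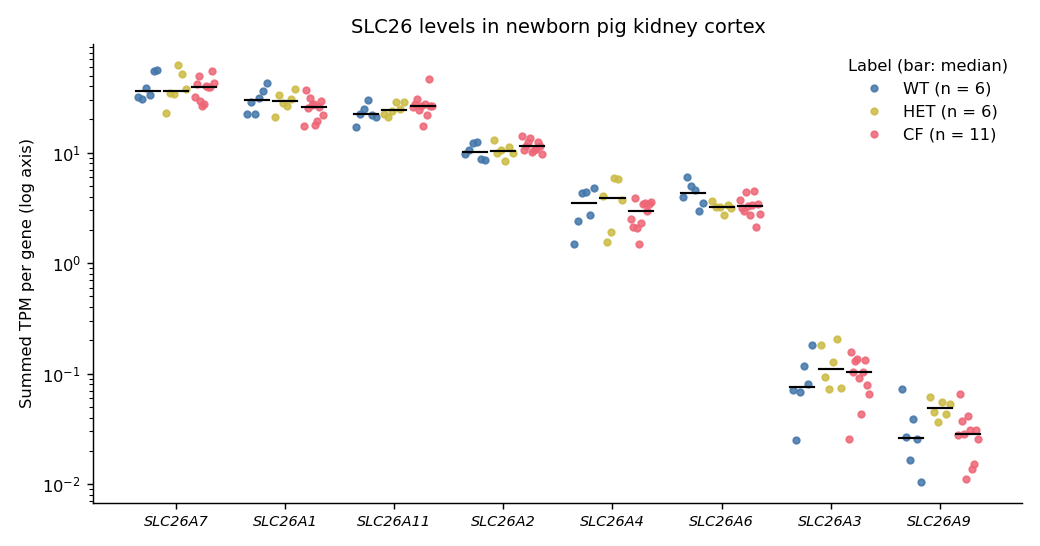
Summed TPM (log axis) of each SLC26 gene in every library, by label, with 11 CF, 6 HET and 6 WT libraries and a bar at each median. The genes fall into 4 tiers, from a median of 38.6 TPM for SLC26A7 to 0.0310 TPM for SLC26A9, and the labels overlap for every gene.

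At the bottom of the range, SLC26A9 gave 2 to 13 counts a library and SLC26A3 gave 4 to 33. A level of 3 counts, the limit that a count of 0 allows, corresponds to 0.0567 to 0.0912 CPM depending on depth, and SLC26A9 was at or below 3 counts in 5 of 23 libraries. This limit covers counting error only. SLC26A3, the chloride and bicarbonate exchanger of the colon, and SLC26A9 were therefore measured close to the limit of this depth, and SLC26A9 did not pass the filter on low counts. The remaining family genes were also low. SLC26A5 (prestin of the cochlea) gave 0 to 3 counts and SLC26A10 5 to 40. SLC26A8 (best known from testis) gave 17 to 62, with a median of 0.209 TPM, above SLC26A3 and SLC26A9.

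No member differed between labels after adjustment over all genes. The comparison of 11 libraries labelled CF with 12 non-CF libraries, which sets the labelled CFTR-/- genotype against the others, called 0 of the 7 members that passed the filter (edgeR quasi-likelihood test, Benjamini-Hochberg adjusted p under 0.05), where 73 of 20921 genes, 0.349%, were called. At an unadjusted p under 0.05 it also passed 0 of 7, against 7.35% (higher) and 6.36% (lower) of all genes tested. Of the 7 members, 3 were higher and 4 lower in the libraries labelled CF, with a median log2 difference of -0.16 against 0.00 over all genes tested. DESeq2, which gave SLC26A3 no adjusted p, called 0 members and 3.06% of the genes it adjusted. Limma-voom and an exact Mann-Whitney U test each called 0 members and 0.220% of genes. The lowest unadjusted p of a member with these tools was 0.0707 (SLC26A1, DESeq2).

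SLC26A1, the sulfate and oxalate exchanger, had 76.0 to 137 CPM in the libraries labelled CF (median 105), 91.4 to 165 in HET (median 126) and 89.9 to 161 in WT (median 120). The labels overlapped, and 8 of 11 libraries labelled CF lay below the non-CF median. The log2 difference of CF against non-CF was -0.22 (SE 0.115, adjusted p = 0.418, edgeR).

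SLC26A6, the apical exchanger of chloride for oxalate, formate and bicarbonate, had 5.61 to 11.6 CPM in CF (median 7.44), 6.02 to 9.05 in HET (median 8.39) and 6.55 to 15.4 in WT (median 9.62). All 6 libraries labelled HET and 9 of 11 labelled CF lay below the WT median. Against WT the log2 difference was -0.31 for both CF (SE 0.156, adjusted p = 0.382, edgeR) and HET (SE 0.179, adjusted p = 0.688). Both comparisons share the WT libraries, and without pig 16, which had the highest WT value, they shrank to -0.14 and -0.13. For CF against non-CF the value was -0.16 (SE 0.135, adjusted p = 0.652, edgeR), and -0.067 without pig 16. For CF against HET it was -0.0018 (SE 0.158, adjusted p = 0.998, edgeR).

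SLC26A4, pendrin, exchanges chloride for bicarbonate at the apical face of base-secreting intercalated cells. It varied most among the members above 1 TPM, with 7.19 to 21.3 CPM in CF (median 15.8), 8.53 to 31.3 in HET (median 21.8) and 7.83 to 23.2 in WT (median 16.6). In 11 of 11 libraries labelled CF it lay below the HET median, yet the ranges overlapped. The log2 difference was -0.45 for CF against HET (SE 0.250, adjusted p = 0.575, edgeR) and -0.30 for CF against non-CF (SE 0.210, adjusted p = 0.582). Without pig 20, labelled HET, the first value was -0.29.

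SLC26A7, the basolateral exchanger of acid-secreting intercalated cells, had 81.5 to 143 CPM in CF (median 109), 66.7 to 166 in HET (median 112) and 83.6 to 147 in WT (median 98.4). The log2 difference of CF against non-CF was 0.02 (SE 0.132, adjusted p = 0.972, edgeR), with a 95% confidence interval from -0.25 to 0.29.

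SLC26A11 had 44.3 to 121 CPM in CF (median 62.0), 51.3 to 74.8 in HET (median 60.7) and 40.3 to 61.1 in WT (median 50.4). In 9 of 11 libraries labelled CF and 6 of 6 labelled HET it lay above the WT median. Pig 7, labelled CF, stood apart with 121 CPM. The log2 difference was 0.37 for CF against WT (SE 0.154, unadjusted p = 0.0245, adjusted p = 0.273, edgeR) and 0.23 for CF against non-CF (SE 0.128, adjusted p = 0.438), and without pig 7 these values were 0.24 and 0.10.

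SLC26A2, whose loss in people causes skeletal dysplasia through undersulfated cartilage, had 67.7 to 121 CPM in CF (median 79.9), 56.3 to 97.5 in HET (median 81.2) and 57.6 to 80.5 in WT (median 73.7). The log2 difference was 0.27 for CF against WT (SE 0.123, unadjusted p = 0.0401, adjusted p = 0.326, edgeR) and 0.18 for CF against non-CF (SE 0.101, adjusted p = 0.446), and without pig 1, labelled CF, the second value was 0.12. SLC26A11 and SLC26A2 were the 2 members of 7 at an unadjusted p under 0.05 in CF against WT, both higher. Of all genes, 7.55% reached it as higher and 6.41% as lower, and 72 of 21434 genes (0.336%) passed adjustment. DESeq2 called 577 of 19043 genes (3.03%) in that comparison, and 0 members.

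SLC26A3 ranged from 0.0825 to 0.642 CPM over all libraries, and the log2 difference of CF against non-CF was -0.16 (SE 0.282, adjusted p = 0.868, edgeR). It was -0.022 without pig 20, labelled HET, and -0.26 without pig 16, labelled WT. SLC26A9, tested without the filter, had a log2 difference of -0.43 (SE 0.313, adjusted p = 0.615). A change of either gene could not be resolved at these low counts. HET against WT called 0 of 7 members, with 1 gene of 21434 (0.00467%) called by edgeR. That gene was CFTR, at a log2 difference of 2.47 (SE 0.194, adjusted p = 5.13e-08, edgeR). DESeq2 called 33 of 22497 genes (0.147%) in HET against WT. CF against HET called 0 of 7, with 0 of 21434 genes called by edgeR and 65 by DESeq2. At an unadjusted p under 0.05, 0 of 7 members passed in either comparison, against 4.13% (higher) and 3.87% (lower) of all genes for HET against WT and 5.55% and 4.28% for CF against HET.

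**Figure D2:**
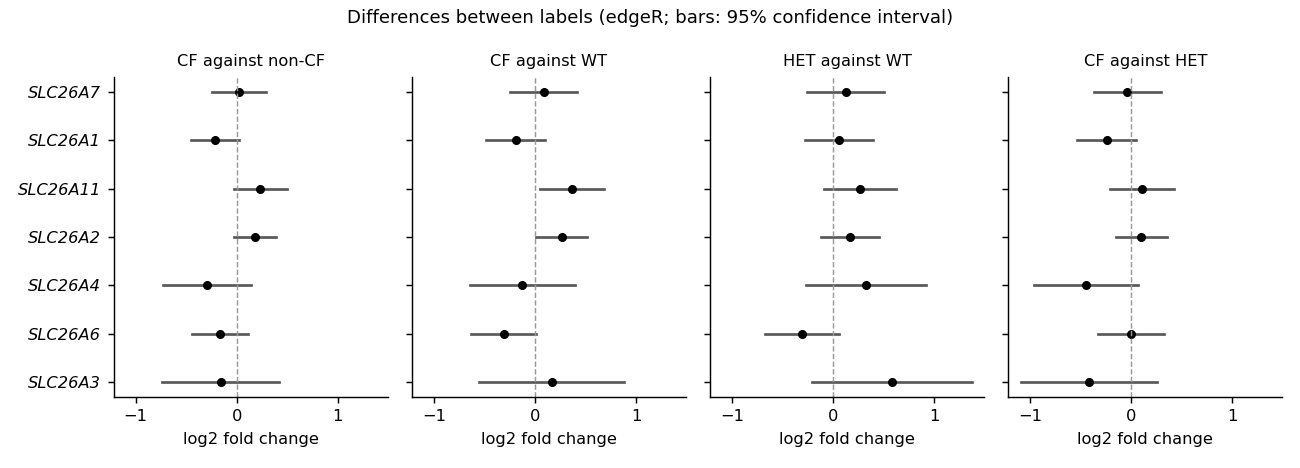
Log2 fold change (x axis) of the 7 tested SLC26 genes between labels, with 95% confidence intervals as bars, in 4 panels for the 4 comparisons of 11 CF, 6 HET and 6 WT libraries. The intervals of SLC26A11 and SLC26A2 lie above 0 in CF against WT, all other intervals include 0, and no gene passed adjustment over all genes.

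When the libraries were laid out by multidimensional scaling, axis 2 split the pig numbers into 2 sets, pigs 1 to 6 and 12 to 18 (13 libraries) and pigs 7 to 11 and 19 to 23 (10 libraries). The labels name no batch, each set holds all 3 labels, and since the sets were seen in the same data their difference is described without a test. SLC26A7 had 66.7 to 127 CPM (median 98.7) in the first set and 108 to 166 (median 140) in the second. SLC26A4 had medians of 13.8 and 19.8 CPM, and SLC26A6, in the opposite order, 9.47 and 6.97 CPM. For all 3 genes the ranges of the sets overlapped. Several marker sums moved with the sets as well. The summed level of the 14 intercalated cell markers had a median of 205 TPM in the first set and 248 in the second, that of the 12 proximal tubule markers 2661 and 3281 TPM, that of the 10 thick limb and distal tubule markers 809.6 and 1025 TPM, and that of the 8 members 101 and 128 TPM. The sums of the 8 principal cell and the 8 inner medulla markers had medians of 200 and 191 TPM and of 164 and 175 TPM. Of 7 tested inner medulla genes, 5 were lower and 2 higher in the second set. The ranges of the sets overlapped for each of these sums, 0 genes of these marker lists were at 0 in all libraries, and their part in the members' values was not tested.

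Within the first set SLC26A7 was higher in CF than non-CF by 0.20 on the log2 scale (SE 0.110, adjusted p = 0.616, edgeR), and within the second the difference was -0.17 (SE 0.0983, adjusted p = 0.407). The difference between these values was -0.37 (SE 0.157, unadjusted p = 0.0255, edgeR), which did not pass adjustment (adjusted p = 0.400). In that test SLC26A7 was the 1 of 7 members at an unadjusted p under 0.05, which 2120 of 20921 genes reached. After adjustment 4 genes (0.0191%) passed. SLC26A4 gave -0.09 (SE 0.261) in the first set and -0.51 (SE 0.221) in the second, and SLC26A1 gave -0.15 (SE 0.151) and -0.30 (SE 0.130). SLC26A6 gave -0.15 (SE 0.157) and -0.13 (SE 0.130). SLC26A11 gave 0.12 (SE 0.121) and 0.35 (SE 0.208), SLC26A2 gave 0.16 (SE 0.113) and 0.24 (SE 0.138), and SLC26A3 gave -0.023 (SE 0.401) and -0.31 (SE 0.360). In the first set 0 of 7 members passed adjustment, where 0% of 21038 genes did, and 0 of 7 had an unadjusted p under 0.05 (6.02% of all genes higher, 3.29% lower). In the second 0 of 7 passed adjustment, where 473 of 20882 genes (2.27%) did. There, SLC26A4 (unadjusted p = 0.0372, edgeR) and SLC26A1 (unadjusted p = 0.0384) were the 2 of 7 members at an unadjusted p under 0.05, both lower, against 8.88% of all genes lower and 8.52% higher.

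**Figure D3:**
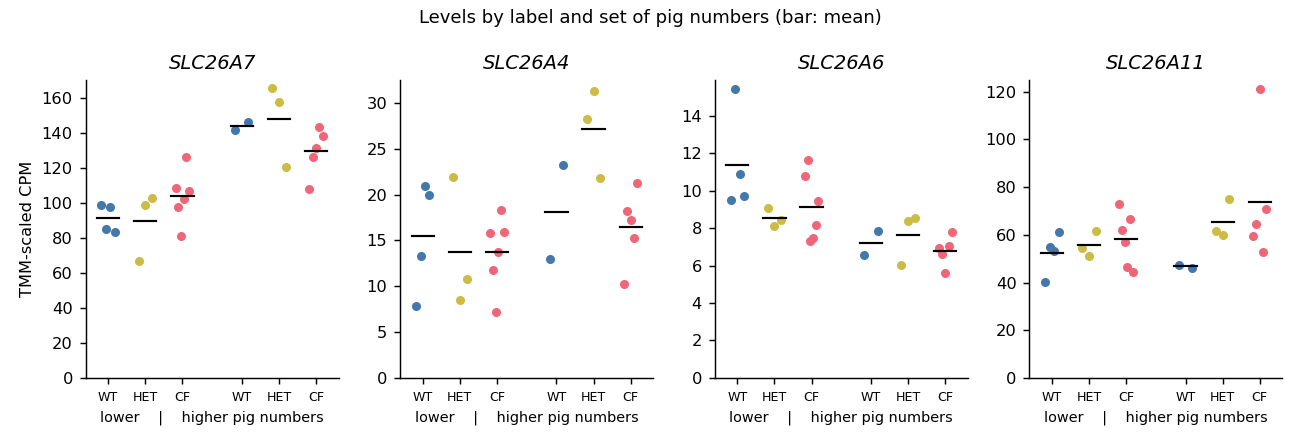
TMM-scaled CPM of SLC26A7, SLC26A4, SLC26A6 and SLC26A11 in each library, by label within pigs 1 to 6 and 12 to 18 (left of each panel, lower numbers) and pigs 7 to 11 and 19 to 23 (right, higher numbers), with a bar at each mean. SLC26A7 is higher on the right (median 140 against 98.7 CPM) and SLC26A6 lower (6.97 against 9.47 CPM), and the point at 121 CPM of SLC26A11 is pig 7.

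The deposited values are per transcript, and the 8 genes had 30 transcripts in all. SLC26A2, SLC26A4, SLC26A9 and SLC26A11 had 1 each, so their values rest on 1 gene model. SLC26A7 lies on the minus strand of chromosome 4 (chr4:45410795-45637500, Sscrofa11.1) and was divided mainly between a transcript of 16 exons and 2016 bases (XM_021089130.1) and one of 19 exons and 5278 bases (XM_013996616.2). They share exons 1 to 15 and part at the 3' end. The shorter has its own exon 16 and a coding sequence of 1725 bases, and the longer goes on through exons 16 to 19 with a coding sequence of 1968 bases. Where they part is shown by the last 50 coding bases of the shorter, in capitals the stop codon, and by exon 16 of the longer, both on the minus strand (chr4:45459449-45459498 and chr4:45458757-45458854).

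16-exon SLC26A7 coding end: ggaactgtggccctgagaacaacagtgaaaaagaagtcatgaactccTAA

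19-exon SLC26A7 exon 16: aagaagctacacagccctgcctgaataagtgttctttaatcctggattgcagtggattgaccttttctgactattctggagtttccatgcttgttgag

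The 19-exon transcript held 45.3% to 57.0% of the SLC26A7 counts in the libraries labelled CF (median 52.6%), 42.6% to 48.1% in HET (median 45.8%) and 36.1% to 48.0% in WT (median 44.9%). All 11 libraries labelled CF lay above the non-CF median, and 8 lay above the highest non-CF library. As means the share was 51.3% ± 3.79 in CF (SD, n = 11) and 44.6% ± 3.42 in non-CF (SD, n = 12). The log2 odds of the share differed by 0.39 (SE 0.0981, unadjusted p = 5.78e-04, limma), but over 20257 transcripts the adjusted p was 0.392. In that test, which was added after the shares had been seen, 0 transcripts (0%) passed adjustment and 8.61% had an unadjusted p under 0.05. The difference was 0.57 (SE 0.142) within pigs 1 to 6 and 12 to 18 and 0.16 (SE 0.138) within the other set. The shares of a gene have a fixed sum, and the 5 other transcripts held a median of 12.1% of the counts. The differences of both main transcripts are therefore not independent. The 16-exon transcript had the opposite sign, with a median share of 35.4% in CF and 42.3% in non-CF over all libraries. Its log2 odds differed by -0.34 (SE 0.125, adjusted p = 0.451, limma), by -0.59 (SE 0.172) within pigs 1 to 6 and 12 to 18 and by -0.032 (SE 0.154) within the other set, where the medians were 43.1% in CF and 41.0% in non-CF. Per length the order of both transcripts turns, since the shorter held a median of 66.0% of SLC26A7 TPM and the longer 27.5%.

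SLC26A1 (chr8:335420-345955, minus strand) lies wholly inside IDUA, the gene of lysosomal alpha-L-iduronidase, on the opposite strand. Exons of both genes share 141 bases, 1.93% of the exon bases of SLC26A1. A stranded kit was used, whether the strand was used in counting is not given in the sources used here, and without strand the reads of these bases cannot be told apart. The Pearson correlation of log2 CPM of SLC26A1 and IDUA over the 23 libraries was 0.18.

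All 6 annotated transcripts of SLC26A1 have the same coding sequence of 2121 bases but differ in their starts and exons. The transcript with the innermost start, at base 340654, held a median of 46.0% of the counts, one starting at 342458 held 18%, and those starting at 345954 or 345955 together held 35.4%. In TPM these shares were 55.2%, 19.9% and 23.4%. By label the innermost start held a median count share of 49.6% in CF, 52.9% in HET and 41.4% in WT, and the log2 odds of its share differed by -0.02 between CF and non-CF (SE 0.224, adjusted p = 0.991, limma). The 250 bases upstream of each start are given on the minus strand, to show where transcripts of these classes begin. They cover chr8:340655-340904, chr8:342459-342708 and chr8:345956-346205.

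Innermost SLC26A1 start: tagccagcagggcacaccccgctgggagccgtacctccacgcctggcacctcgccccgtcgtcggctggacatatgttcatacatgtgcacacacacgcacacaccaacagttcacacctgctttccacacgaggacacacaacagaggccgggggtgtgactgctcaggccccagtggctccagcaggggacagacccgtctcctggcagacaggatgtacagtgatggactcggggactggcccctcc

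Middle SLC26A1 start: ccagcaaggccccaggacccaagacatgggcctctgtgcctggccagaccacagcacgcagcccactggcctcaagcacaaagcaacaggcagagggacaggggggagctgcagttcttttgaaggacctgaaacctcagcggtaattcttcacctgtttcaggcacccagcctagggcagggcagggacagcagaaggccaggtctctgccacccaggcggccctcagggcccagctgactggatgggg

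Outermost SLC26A1 start: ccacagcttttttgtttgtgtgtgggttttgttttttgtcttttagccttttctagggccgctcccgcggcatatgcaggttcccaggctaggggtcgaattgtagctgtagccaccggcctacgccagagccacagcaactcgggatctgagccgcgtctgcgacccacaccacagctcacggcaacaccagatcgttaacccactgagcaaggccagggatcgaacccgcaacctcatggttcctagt

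These windows were searched on both strands for GGGCGG, the GC box, for CCAAT, a proximal promoter element, for TATAAA, the TATA box, for TGTTTAC, a forkhead site, and for CACGTG, the E-box, which would stand in capitals, and held none of them. Of 19545 windows of 250 bases upstream of protein-coding genes, 45.9% held GGGCGG, 31.9% CCAAT, 9.77% TATAAA, 2.27% TGTTTAC and 6.39% CACGTG. The outermost window is marked as repeat sequence in the genome over 99.2% of its bases, the middle over 8.40% and the innermost over 14.8%. Among the other members, the window of SLC26A2 held 2 GGGCGG and that of SLC26A6 held 1. The windows of SLC26A2, SLC26A3, SLC26A6 and SLC26A9 held 1 CCAAT each, that of SLC26A9 also 2 TATAAA, that of SLC26A4 1 TGTTTAC, and that of SLC26A7 none of these motifs. A match is a run of letters and not a measured site.

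The other members were placed in the same assembly. SLC26A11 lies at chr12:2220679-2241802 (minus strand). SLC26A3 and SLC26A4 are neighbours (chr9:107480629-107518771, minus strand, and chr9:107365121-107431065, plus strand), 49563 bases apart, with a Pearson correlation of log2 CPM of 0.22 over the 23 libraries and medians of 0.0941 and 3.43 TPM. SLC26A2 lies at chr2:150996868-151027483 (plus strand), SLC26A6 at chr13:31319287-31330649 (minus strand, 11 transcripts, of which 1 was at 0 counts in all libraries) and SLC26A9 at chr9:66557560-66593322 (minus strand).

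**Figure D4:**
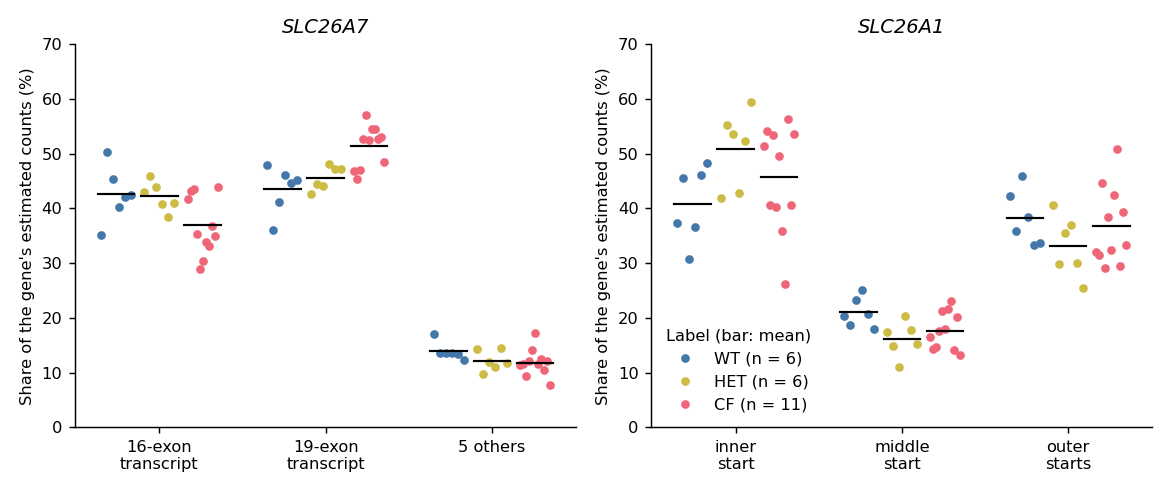
Share of the gene's estimated counts in percent (y axis) for 3 classes of SLC26A7 transcripts (left) and 3 classes of SLC26A1 starts (right) in each library, by label (11 CF, 6 HET, 6 WT), with a bar at each mean. The 19-exon transcript of SLC26A7 lies higher in CF (mean 51.3%) than in the 12 non-CF libraries (44.6%), and the starts of SLC26A1 overlap between labels.

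The correlations of the members with each other below are Pearson r of log2 CPM over the same 23 libraries, which share depth and scaling, and serve as descriptions. SLC26A2 and SLC26A11 had r = 0.52 (0.69 and 0.82 within the sets of pig numbers). SLC26A4 and SLC26A7, both best known from intercalated cells, had r = 0.46 over all libraries but -0.06 in the first set. Their r was 0.70 in the second set and 0.83 within the 11 libraries labelled CF. SLC26A1 and SLC26A3 had r = 0.35 over all libraries (0.23 and 0.28 within the sets) and 0.71 within the libraries labelled CF, and SLC26A2 and SLC26A11 had 0.54 there. SLC26A6 and SLC26A7 had r = -0.56, but -0.13 and -0.03 within the sets and -0.38 within the libraries labelled CF. With CFTR, r was 0.45 for SLC26A11, 0.42 for SLC26A2, -0.24 for SLC26A1 and -0.28 for SLC26A6, and these values include the label difference of CFTR. Within the 11 libraries labelled CF, r was 0.14 for SLC26A11, 0.07 for SLC26A2, -0.31 for SLC26A1 and 0.37 for SLC26A6. Median r with the 14 intercalated and the 12 proximal tubule markers was 0.40 and 0.44 for SLC26A7, and 0.15 and 0.26 for SLC26A4. It was -0.34 and -0.24 for SLC26A6, and 0.24 and 0.12 for SLC26A1. These values did not place the members by segment.

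The gene most like SLC26A1 was ABHD17C, a depalmitoylase (r = 0.89, and 0.88 within each set), then CCDC151 (r = 0.88) and NDUFS8, a complex I subunit (r = 0.80). Most like SLC26A2 were SLC35E2B (r = 0.87), the kinase STK24 (r = 0.85) and DENND1B (r = 0.85). SLC26A7 was most like NUDCD2 (r = 0.85), TMEM52B (r = 0.82) and RBMX, a splicing factor (r = 0.82). Within the sets the values were 0.64 and 0.52 for NUDCD2, 0.84 and 0.52 for TMEM52B and 0.63 and 0.32 for RBMX. SLC26A11 was most like EIF3F, a translation initiation factor subunit (r = 0.79), ZNF133 (r = 0.78) and PRLR, the prolactin receptor (r = 0.77). SLC26A4 was most like FAM192A (r = 0.80), LOC100739663 (r = 0.79) and the sulfotransferase SULT1A3 (r = 0.77), and SLC26A6 was most like DBNDD1 (r = 0.81), ACCS (r = 0.79) and LOC100523107 (r = 0.79). SLC26A3, at its low counts, reached r = 0.70 with LOC100623931, 0.69 with LOC106504254 and 0.68 with CUNH21orf58, and within the second set of pig numbers 0.40, 0.29 and 0.60.

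The other transporters and partners of the pathway gave no calls in CF against non-CF either (edgeR, adjusted p under 0.05), where 0.349% of all genes were called. Of the SLC4 bicarbonate transporters, 3 were higher and 6 lower among 9 tested, with a median log2 difference of -0.04. SLC4A4, the basolateral sodium bicarbonate cotransporter, had a median of 140 TPM and a log2 difference of -0.05 (SE 0.0983). Of 14 tested scaffold and regulator genes that tie CFTR to SLC26 proteins, 6 were higher and 8 lower (median -0.04). PDZK1, a PDZ scaffold of the brush border, had 305 TPM and a log2 difference of 0.03 (SE 0.106), SLC9A3R1 (NHERF1) 160 TPM and -0.12 (SE 0.130), and the sodium-proton exchanger SLC9A3 33.6 TPM and 0.19 (SE 0.0949). Of 8 sulfate handling genes, 4 were higher and 4 lower, and the apical sulfate transporter SLC13A1 stood at 73.6 TPM with 0.15 (SE 0.162).

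Cell type markers were set beside the members. Of 14 intercalated cell markers, 6 were higher and 8 lower in CF than non-CF, 0 were called (0.349% of all genes were), and their summed level ran from 187 to 301 TPM in CF and 179 to 295 TPM in non-CF. ATP6V1B1 had a log2 difference of 0.38 (SE 0.110, adjusted p = 0.103, edgeR), and FOXI1 0.09 (SE 0.145), SLC4A1 -0.12 (SE 0.129) and SLC4A9 -0.04 (SE 0.146). Of 12 proximal tubule markers, 9 were higher and 3 lower, and their summed level ran from 2191 to 3800 TPM in CF and 2048 to 4132 in non-CF. Of 10 thick limb and distal tubule markers, 1 was higher and 9 were lower (median -0.15), with summed levels of 659 to 914 TPM in CF and 623 to 1490 in non-CF, and SLC12A1 had a log2 difference of -0.28 (SE 0.0808, adjusted p = 0.0966). None of these marker genes was at 0 in all libraries, and the part of tissue makeup in the members' values was not tested. In CF against WT, where 0.336% of all genes were called, 1 gene of the marker lists was called, the water channel AQP1 (0.93, SE 0.187, adjusted p = 0.0303, edgeR), which stands in the inner medulla list and is also a gene of the proximal tubule. Of the 7 tested genes of that list, 2 were higher and 5 lower in CF than WT. The summed level of its 8 genes, AQP1 included, ran from 139 to 265 TPM in CF (median 189.9), 131 to 169 in HET (median 159.7) and 131 to 220.2 in WT (median 157).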

How the data were processed

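Kidney cortex RNA of 23 newborn pigs (11 labelled CF, 6 HET, 6 WT) was prepared with a stranded total RNA kit after ribosomal RNA depletion. Reads were assigned by the authors with kallisto to RefSeq transcripts (Sscrofa11.1), 1 file a library. The deposited estimated counts are expected counts for each transcript and are not normalized. The deposited TPM values correct these counts for effective transcript length and scale every library to a constant sum. The use of strand in counting is not given in the sources used here.

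Estimated counts and TPM of 77689 transcripts were summed to 26687 symbols, and summed counts were rounded. Depth ran from 32901281 to 52952273 counts (median 44639997), and 0 pairs of libraries held identical values. Genes were tested with edgeR 4.0.16 on R 4.3.3 (TMM, filterByExpr, quasi-likelihood test, Benjamini-Hochberg adjustment over all genes, limit 0.05), in a fit of CF against non-CF and a fit with 3 labels. The study's methods name a Mann-Whitney U test, and this was run as an alternative because the values are counts. Log2 CPM used a prior count of 2. Standard errors were derived from the F statistic. Transcript shares were tested with limma 3.58.1 on log2 odds (pseudocount 0.5) for genes with at least 100 counts in every library and transcripts with a mean share of 10% to 90%. The edgeR fits between labels and the fit of transcript shares were tested on simulated data. Sequences, positions and neighbours were read from Sscrofa11.1 (NCBI annotation release 106). Figures were drawn with matplotlib 3.10.9 in Python 3.11.15.

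The members and lists were chosen with earlier results of these data known. Genes were named by a rule: the 8 members, CFTR, the rest of the family, the 3 genes with the highest correlation with each member, listed genes that passed adjustment, and a set of defining markers and partners. SLC4A4 was named outside this rule, after its values were seen. IDUA was named for its position. The promoter window of SLC26A11 is not reported here. Of the listed symbols, NHERF1 was matched by its older symbol SLC9A3R1. Alternatives were DESeq2 1.42.0, limma-voom, median-of-ratios and upper-quartile factors, other filters (none, or 10 counts in 6 libraries), the set of pig numbers as a term or each set alone, limma on log2(TPM + 0.1), an exact Mann-Whitney U test, and each library left out. The test of transcript shares and the test of the difference between sets were added after seeing the data. Litter and sex are not in the labels, and no pig gave more than 1 library.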

Additional observations from a re-analysis of the deposited data

Results flagged for a closer look

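Of 16 groups of 6 libraries checked (8 members in HET and WT), 1 held a library far from the others by Dixon's criterion at the 95% level, where chance alone gives about 1 in 20. SLC26A6 was at 6.02 CPM in pig 19, labelled HET, while the other 5 libraries labelled HET lay between 8.08 and 9.05 CPM. Groups of 11 or more libraries were not checked, so the SLC26A11 value of pig 7, labelled CF, is outside this criterion.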

How the results depend on the processing

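The count of members called was 0 in each genotype comparison under every alternative run, left-out libraries included. Of 182 fold changes of single members under alternative tools, factors, filters, sets or units, 178 kept their direction and 0 passed the threshold (lowest adjusted p 0.171). The 4 that turned were of SLC26A7, whose fitted difference lies near 0. For CF against non-CF it was -0.17 within pigs 7 to 11 and 19 to 23 alone and -0.054 with limma on log2(TPM + 0.1). For CF against HET it was 0.0065 with limma-voom and 0.019 with the set of pig numbers as a term. With each library left out in turn, 621 of 644 fold changes kept their direction and 0 passed (lowest adjusted p 0.185). The ranges that crossed 0 were -0.032 to 0.082 for SLC26A7 in CF against non-CF, -0.16 to 0.070 for SLC26A7, -0.081 to 0.034 for SLC26A6 and -0.030 to 0.18 for SLC26A11 in CF against HET, -0.023 to 0.51 for SLC26A3 in CF against WT, and -0.033 to 0.16 for SLC26A1 in HET against WT. By counts per kilobase of the longest transcript in place of TPM, 3 of 8 members kept their place in the order of levels. That order depends on the length used. The study compared littermate pairs in its metabolite measurements, but litter is not in the labels, so no paired analysis was possible. Low counts limit what can be said of SLC26A9 and SLC26A3, and counting error was not separated from spread between pigs. The labels name no batch, litter or sex, so their part was not tested. Values are RNA and not protein or transport.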
